A study of Mus musculus with 2 samples.

Results

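The Notch receptors, their ligands and their direct target genes were examined in uterine stromal cells from mice that lack the homeobox factors Msx1 and Msx2. The set was taken by gene symbol: 4 receptor genes (Notch1, Notch2, Notch3 and Notch4), 4 ligand genes (Jag1, Jag2, Dll1 and Dll4) and 2 target genes (Hes1 and Hey1). All probe sets whose only annotated gene was one of these 10 were used, 19 of the 45101 on the array, which in all represented 18193 genes.

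There was 1 array for each genotype, both of C57BL/6 mice on day 4 of pregnancy after mating to fertile males. The control mice carried Msx1 and Msx2 alleles flanked by loxP sites and are labelled Msx1Msx2 Floxed Control. The Msx1Msx2-null mice came from a cross of the same floxed line with PRcre, a Cre recombinase expressed where the progesterone receptor gene is active, which in the uterus takes in more than the stroma. RNA was pooled within each genotype, from 5 mice by the design text and the treatment protocol or 4 by the extraction protocol. Each value is thus 1 measurement of 1 pool, with no replicate, no error between animals and no p-value, and genotype, pool and hybridization cannot be told apart. A pool of tissue cells also cannot separate fewer cells of a type from less RNA per cell.

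Notch receptors are single-pass membrane proteins that are activated by Jagged and Delta-like ligands on neighbouring cells. Ligand binding exposes the receptor to cleavage by an ADAM protease and then by the gamma-secretase complex, and the freed intracellular domain enters the nucleus. There it joins the DNA-binding protein Rbpj and Mastermind-like coactivators and turns on repressor genes of the Hes and Hey families. In blood vessels the pathway is used by endothelial cells, in which Notch4 and Dll4 are characteristic, and by mural cells, in which Notch3 is characteristic, and in the uterus it also acts in the decidualizing stroma.

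The values are MAS5 signal intensities on a linear scale. A floor was set at the median signal of an array's non-control probe sets, 31.0 for control and 30.1 for null cells, because detection calls were not analysed here. A ratio is the log2 ratio of the null to the control signal, and a ratio with 1 signal under the floor is a bound computed from the floor. Of the 19 probe sets, 13 were above the floor in both arrays, 2 in the control array alone and 4 in neither. Each of the 10 genes had at least 1 probe set above the floor in at least 1 array, and 9 were above it in both on the probe set used for the gene, the one with the highest mean log2 signal. On their brightest probe sets the targeted genes went from 1581 to 23.0 (Msx1) and from 63.7 to 14.5 (Msx2), and both null signals were under the floor. The position of these probe sets relative to the deleted parts is not given in the sources used here. The 3'/5' signal ratio was higher in the null array, at 1.28 against 0.967 for Gapdh and 2.33 against 1.80 for Actb.

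The 4 receptors did not move together: Notch3 and Notch4 were lower in the null array, Notch2 was higher, and Notch1 was close in both arrays. Notch3, the receptor of vascular mural cells, went from a signal of 404 in control cells to 230 in null cells on probe set 1421965_s_at. On 1421964_at, its other probe set, it went from 94.7 to 52.2. The log2 ratios were -0.81 and -0.86, so both probe sets gave a similar change, 1.76-fold and 1.81-fold lower. Of all genes above the floor, 3.16% had a lower ratio than Notch3. As a scale of probe noise, the SD of the log2 ratio of 1 probe set was estimated from pairs of probe sets of the same gene. It was 0.27 in the signal range of the brighter Notch3 probe set and 0.32 in that of the dimmer one. This SD leaves out mice, pools and hybridizations.

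Notch4, a receptor characteristic of endothelium, was above the floor on probe set 1449146_at alone, with 151 in control and 109 in null cells. Its log2 ratio was -0.48, where probe noise had an SD of 0.32, and 9.85% of genes had a lower ratio. The other 2 Notch4 probe sets lay below both floors, at 12.6 and 8.63 for 1456263_at and at 2.19 and 12.7 for 1436901_at, and they give no direction.

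Notch2 went the other way, from 345 to 476 on probe set 1455556_at, 1.38-fold higher with a log2 ratio of 0.46 and a probe noise SD of 0.21. A higher ratio was seen for 10.6% of genes. The second Notch2 probe set, 1451889_at, lay below both floors at 19.6 and 21.0, so the direction of Notch2 rests on a single probe set. Notch1, the prototype receptor of the family, had 517 and 479 on probe set 1418634_at and 75.0 and 69.8 on 1418633_at. Both log2 ratios, -0.11 and -0.10, were smaller than the SD of probe noise at their signal, 0.21 for the first and 0.32 for the second.

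Promoter sequences are shown for Notch3 and Notch2, the receptors with the lowest and the highest ratio. Both come from RefSeq on GRCm38.p6 and end just before the annotated gene, and capitals mark GC boxes (GGGCGG or, on the other strand, CCGCCC). The Notch2 stretch is chr3:98013288-98013537 on the plus strand, 250 bases with 72% G and C and 5 GC boxes. The Notch3 stretch is chr17:32166897-32167140 on the minus strand, 244 bases with 68.9% G and C and 4 GC boxes.
Notch2: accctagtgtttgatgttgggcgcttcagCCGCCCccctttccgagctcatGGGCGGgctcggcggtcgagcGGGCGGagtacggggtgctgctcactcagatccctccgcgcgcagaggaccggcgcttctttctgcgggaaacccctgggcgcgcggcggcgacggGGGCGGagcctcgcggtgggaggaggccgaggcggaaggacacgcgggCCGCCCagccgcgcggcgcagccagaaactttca
Notch3: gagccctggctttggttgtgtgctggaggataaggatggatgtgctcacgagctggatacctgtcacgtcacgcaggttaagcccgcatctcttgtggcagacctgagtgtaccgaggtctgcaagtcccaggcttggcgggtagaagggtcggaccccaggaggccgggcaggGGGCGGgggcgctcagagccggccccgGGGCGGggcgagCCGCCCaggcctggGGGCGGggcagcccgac

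The table of promoters held 8 of the 10 members, with 9 windows of 250 bases before a start site since Dll1 has 2, and it gave none for Hes1 and Hey1. The core site of Rbpj, TGGGAA or TTCCCA, was in 0 of the 9 windows, and in 21.6% of the 32851 windows of all genes. The longer form GTGGGAA or TTCCCAC, which contains that core, was in 0 of the 9 and in 5.42% of all windows. The homeodomain core TAATTG or CAATTA, to which Msx proteins bind, was likewise in 0 of the 9 and in 7.17% of all. GC boxes were in 5 of the 9 windows, those of Notch1, Notch2, Notch3, Jag2 and Dll4, and in 32.7% of all. These matches describe letters in short windows and say nothing of whether a factor binds there.

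Among the ligands Jag2 stood out as lower, and Dll1 was the one with a higher signal. Jag2, a Jagged-type ligand, went from 71.9 to 42.3 on probe set 1426431_at, and from 62.1 to 31.6 on 1426430_at. Its log2 ratios were -0.77 and -0.98, or 1.70-fold and 1.97-fold lower, with a probe noise SD of 0.32 for such dim signals. On the brighter probe set 3.63% of genes had a lower ratio. The null signal of the second lay just above the floor of 30.1.

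Jag1, the other Jagged ligand, had 421 and 372 on probe set 1434070_at and 73.8 and 54.3 on 1421106_at. Its log2 ratios of -0.18 and -0.44 had the same sign and different sizes, and the first was within the probe noise SD of 0.21. The third Jag1 probe set, 1421105_at, lay below both floors at 19.1 and 13.2.

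Delta-like ligands were dim. Dll4, the endothelial Delta-like ligand, went from 40.3 to 29.6 on probe set 1421826_at and from 33.8 to 20.8 on 1421827_at. Both null signals were under the floor, and with the floor in their place Dll4 was at least 1.34-fold and at least 1.13-fold lower, with log2 ratios of -0.42 and -0.17. Dll1, a Delta-like ligand best known from embryonic patterning, went from 37.1 to 52.5 on its only probe set, 1419204_at. The log2 ratio was 0.50 against a probe noise SD of 0.32, and its control signal lay close to the floor of 31.0.

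**Figure D1:**
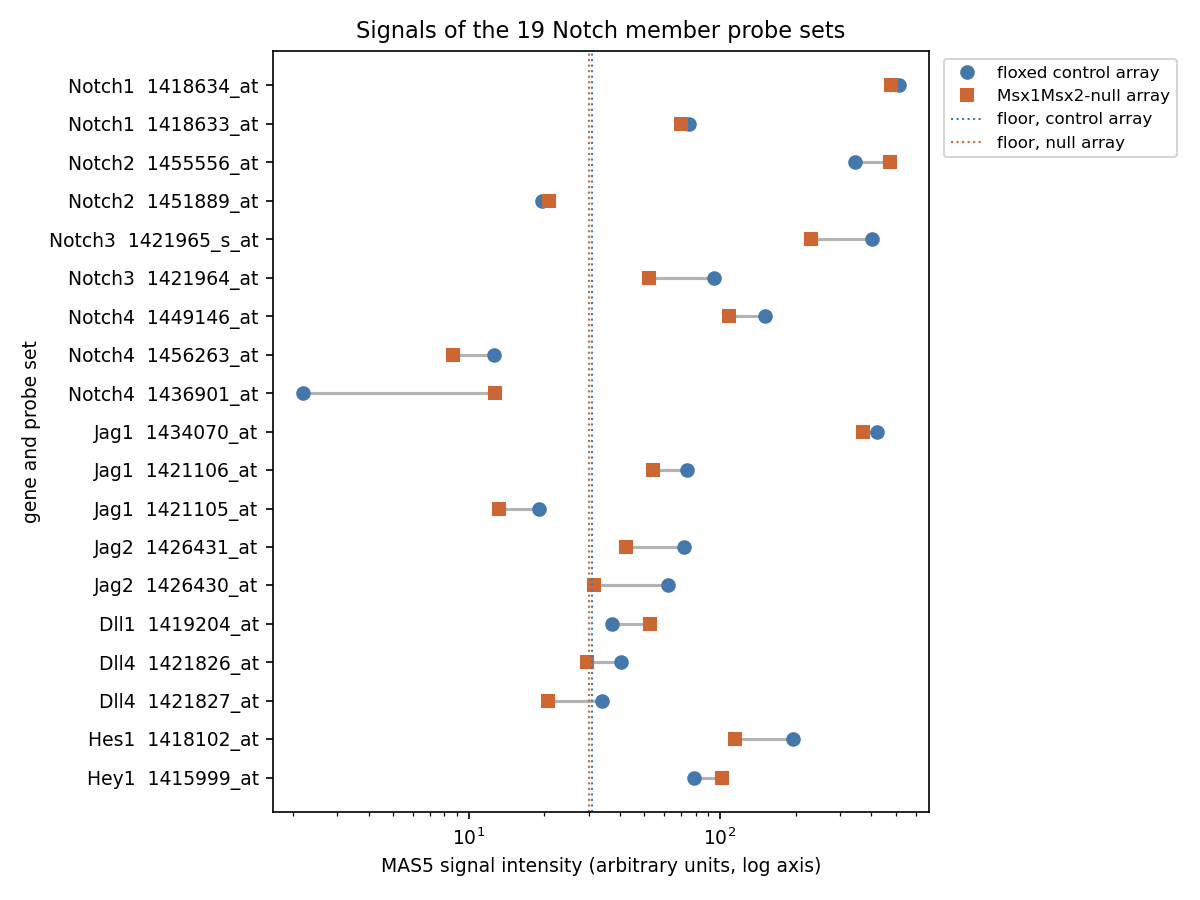
MAS5 signal (horizontal log axis, arbitrary units) of each of the 19 member probe sets in the control array (circles) and the null array (squares), with dotted lines at the floors of 31.0 and 30.1. Both Notch3 and both Jag2 probe sets lie lower in the null array, while Notch2 on 1455556_at, Dll1 and Hey1 lie higher.

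The 2 target genes differed in direction. Hes1, a basic helix-loop-helix repressor that Notch activates directly, went from 196 in control to 115 in null cells on its only probe set, 1418102_at. The log2 ratio was -0.77, or 1.70-fold lower, with a probe noise SD of 0.32, and 3.62% of genes had a lower ratio. Hey1, a related repressor and Notch target, had 79.0 and 102 on its only probe set, 1415999_at, a log2 ratio of 0.37 or 1.29-fold higher, close to the probe noise SD of 0.32. Each target was thus read by 1 probe set, and no second probe set was there to check either direction.

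Across the 10 members 7 ratios were below 0 and 3 above, with a median of -0.30, while 47.7% of all 11833 genes above the floor were below 0, 52.3% were above 0 and their median was 0.02. With the floor at the 65th percentile, 3 of the members (Jag2, Dll1 and Dll4) were no longer measured, and the median of the other 7 was -0.18. None of the 10 was 2-fold lower, against 1.8% of all genes, and none was 2-fold higher, against 1.59%. At 1.5-fold, 3 members were lower (Notch3, Jag2 and Hes1), against 6.92% of all genes, and 0 were higher, against 6.79%. The count of lower members was 2 with the floor at the 65th percentile, where Jag2 was not measured. The 3 lower members were one receptor, one ligand and one target, and each of these classes also held a gene with a higher ratio, namely Notch2, Dll1 and Hey1. For the 4 members with a pair of probe sets that passed both floors (Notch1, Notch3, Jag1 and Jag2), the 2 brightest had the same sign in all 4, compared with 63.9% of the 4690 genes with such a pair. Since a pair was read from the same RNA, its shared sign describes the probes, not the genotype.

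**Figure D2:**
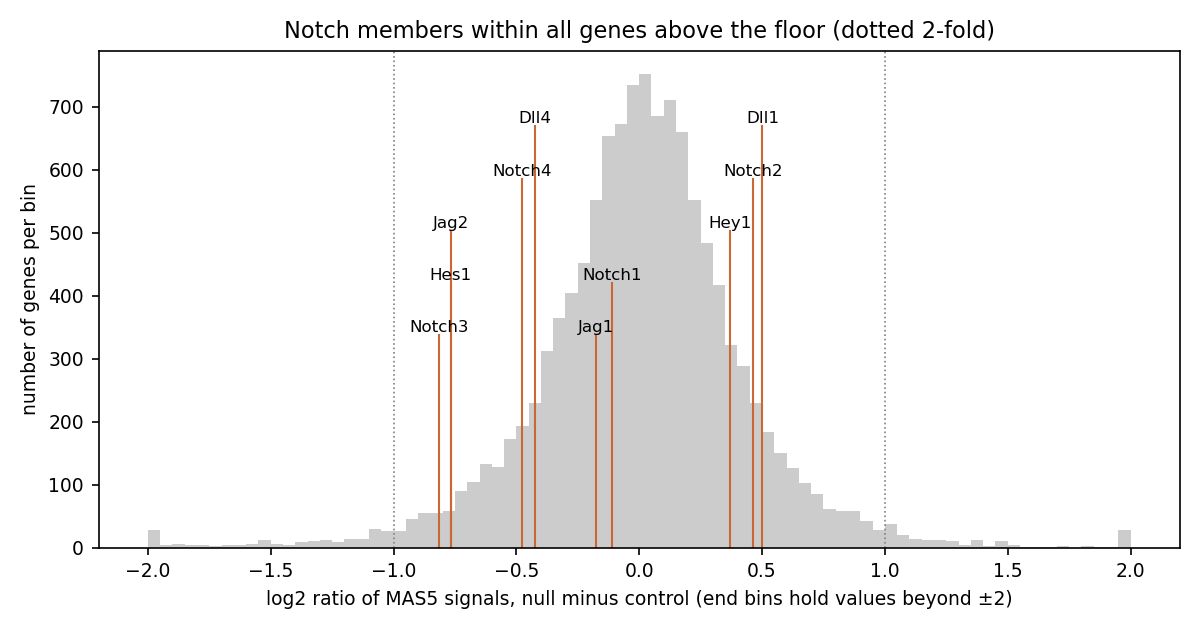
Number of genes (vertical axis) by log2 ratio, null minus control, for the 11833 genes above the floor (grey), with the 10 members as vertical lines of arbitrary height and dotted lines at 2-fold. Notch3, Hes1 and Jag2 lie in the lower flank at -0.81, -0.77 and -0.77, Dll4 at -0.42 is a bound, and 0 members pass 2-fold.

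Genes that act elsewhere in the pathway were evenly split. Of 49 listed genes 45 were analysed here, and 36 were above the floor, 18 with a higher and 18 with a lower ratio and a median of -0.01. At 1.5-fold 1 was higher and 2 were lower, against 6.79% and 6.92% of all genes, so both counts were at or under the share over all genes. None passed 2-fold, against 1.59% higher and 1.8% lower.

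Of Nrarp and the other listed genes of the Hes and Hey families, 3 could be measured, and all 3 ratios were below 0 without reaching 1.5-fold. Heyl, a target in vascular mural cells, had 102 and 68.0 on one probe set and 80.1 and 54.1 on another, log2 ratios of -0.58 and -0.57. Nrarp, a feedback inhibitor that Notch induces, went from 105 to 88.6 with a log2 ratio of -0.25, and Hes6 had -0.21. Both were within the probe noise SD at their signal (0.32 and 0.27), whereas the other 5 of these genes (Hes2, Hes3, Hes5, Hes7 and Hey2) lay below both floors. Among atypical ligands Dner alone was above the floor, with a log2 ratio of -0.26 that was within the probe noise SD of 0.32. Its second probe set, with 20.9 and 44.0 and a bound of 0.50, had the opposite sign, so no direction is given for Dner.

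The nuclear complex showed small ratios on the brightest probe sets. Of its 7 measured genes 5 were higher and 2 lower, with a median of 0.05. On these probe sets 0 were past 1.5-fold, against 6.79% of all genes higher and 6.92% lower, and 7 genes are too few to differ from those shares. Rbpj, the DNA-binding partner of all 4 receptors, went from 827 to 1018 on its brightest probe set, a log2 ratio of 0.30, and from 208 to 367 and from 101 to 110 on the others, so all 3 were higher by different amounts. The coactivator gene Maml1 had 0.18, and a further probe set disagreed in sign.

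Among 8 genes for processing proteases and gamma-secretase subunits 6 had a lower and 2 a higher ratio. Psen2, a catalytic presenilin of gamma-secretase, had the lowest ratio of the pathway, from 513 to 269, which is a log2 ratio of -0.93 or 1.91-fold lower with a probe noise SD of 0.21. Its second probe set lay below both floors. The gamma-secretase subunit gene Aph1b had 0.46, and signal from its near-identical copy Aph1c cannot be separated from it. Adam10 and Adam17, the ADAM proteases that make the first cut after ligand binding, had 0.01 and -0.10 on their brightest probe sets. Their other probe sets above both floors were lower, with -0.60 for Adam10 (from 244 to 161). Those of Adam17 had -0.38 and -0.71 (from 289 to 222 and from 69.2 to 42.4). The probe sets of each gene thus differed in size, and those of Adam10 also in sign. Adam10, at 0.01, was counted as 1 of the 2 higher genes.

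The glycosyltransferases that modify the receptor's extracellular domain had 4 higher and 1 lower ratio. Rfng, a Fringe enzyme, went from 279 to 453, a log2 ratio of 0.70 or 1.62-fold higher, and its other probe set gave 0.22. Mfng, another Fringe gene, went from 113 to 77.1 with -0.55, so the Fringe genes differed in direction, and Lfng had 0.06. Pofut1 and Poglut1, which attach the first sugars, had 0.37 and 0.34.

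Of 12 genes for ligand endocytosis and receptor turnover 7 were higher and 5 lower, with a median of 0.01. Fbxw7, the ubiquitin ligase subunit that marks the Notch intracellular domain for degradation, went from 351 to 212 on one probe set and from 310 to 164 on the other, log2 ratios of -0.73 and -0.92. Fbxw7 also acts on other substrates. Numbl, a homologue of the Notch antagonist Numb, had 0.52, and Numb itself had -0.42.

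**Figure D3:**
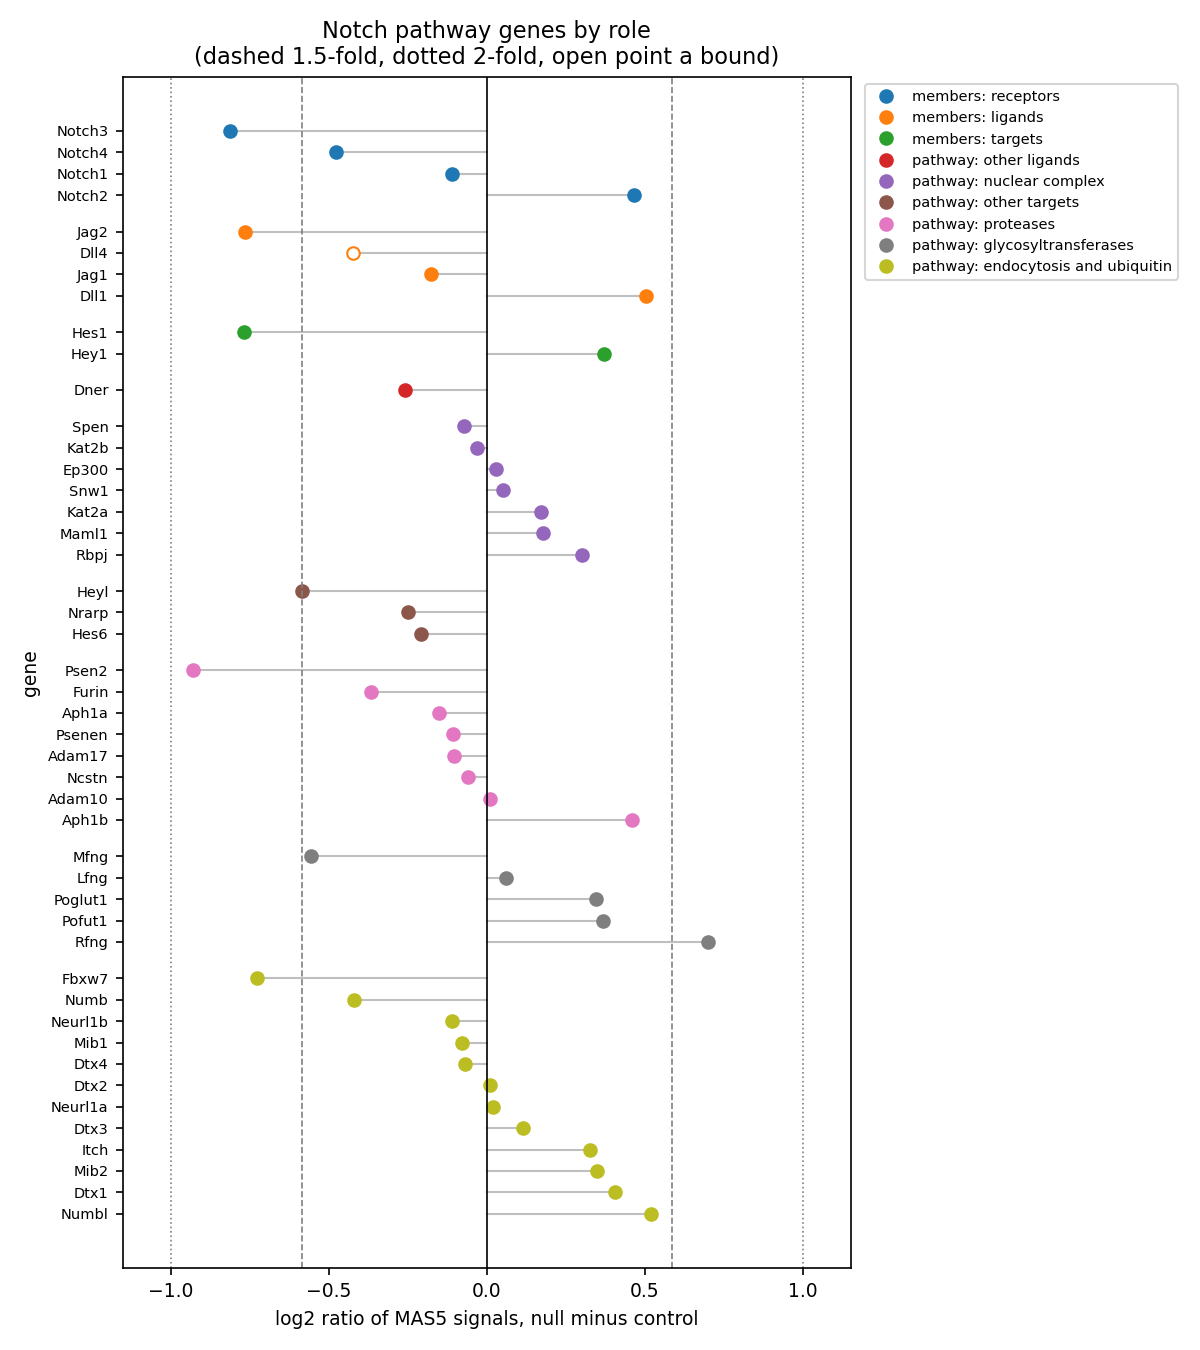
Log2 ratio, null minus control (horizontal axis), of the 10 members and the 36 other pathway genes above the floor, grouped and coloured by role. Dashed lines mark 1.5-fold and dotted lines 2-fold, and the open point of Dll4 is a bound. Psen2 has the lowest ratio at -0.93 and Rfng the highest at 0.70.

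The listed markers of endothelial cells and most of those of pericytes were lower in the null array, and most of those of smooth muscle were higher. All 19 listed endothelial markers were above the floor and had a ratio below 0, with a median of -0.66. Cd34, which was placed in the stromal list alone, was higher, from 2741 to 3953 with a log2 ratio of 0.53. Of the 19, 11 were past 1.5-fold lower, against 6.92% of all genes, and 1 past 2-fold lower, against 1.8%, and their signals summed to 10030 in control and 6566 in null cells. The adhesion molecule gene Pecam1 had -0.80, the angiopoietin receptor gene Tek -0.76 and VE-cadherin, Cdh5, -0.28. The lowest ratios were -1.20 for Ecscr, -0.92 for Plvap and -0.89 for Emcn. Beside this median Notch4 had -0.48, Dll4 a bound of -0.42, Jag1 -0.18 and Notch1 -0.11. The part of the endothelial markers in these ratios was not tested.

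Of 10 pericyte markers 9 were lower, against 47.7% of all genes, and 1 of the 9, Cox4i2, was a bound. The list had a median of -0.50 and summed signals of 12111 and 8628. At 1.5-fold 1 of the 10 was lower, against 6.92% of all genes, and at 2-fold also 1, against 1.8%. The lowest were Anpep (-1.14), which other cell types also express, Abcc9 (-0.57) and Mcam (-0.53). The marker with a higher ratio was Cspg4, with 0.10 on its brightest probe set and 0.59 on its other. Beside this median Notch3 had -0.81 and Heyl -0.58. Smooth muscle markers went the other way, with 9 of 10 higher, against 52.3% of all genes. The list had a median of 0.40 and summed signals of 13291 and 17754. At 1.5-fold 3 of the 10 were higher, against 6.79% of all genes, and at 2-fold 0, against 1.59%. Synpo2, for which a further probe set disagreed in sign, had 0.82, Cnn1 0.70 and Actg2 0.66. Des, with -0.15, was in both lists, as 1 of the 9 lower pericyte markers and as the only lower smooth muscle marker. The part of these cell types in the ratio of Notch3 was not tested.

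Markers of the labelled stromal cell type were present, with all 14 above the floor, 10 higher and 4 lower. Their summed signals were 64398 and 68145 and their median was 0.18. At 1.5-fold 3 of the 14 were higher, against 6.79% of all genes, and 0 were lower, against 6.92%. The largest ratios were 0.80 for Hoxa11, 0.75 for Wt1 and 0.63 for Hand2, the last with a further probe set that disagreed in sign, and the lowest was -0.32 for Vim. Epithelial markers were also above the floor, 14 of 14 on the array, with 11 lower and 3 higher. Their median was -0.14 and their summed signals were 14438 and 10908. The lower sum leans on Prom1 (from 2570 to 911) and Krt18 (from 2822 to 1350). Foxa2, the transcription factor of the glands, had -2.18, Prom1 -1.50 and Krt18 -1.06, while Krt19, Cldn7 and Elf3 had 1.04, 0.91 and 0.81. Thus 3 of the 14 were past 1.5-fold in each direction, against 6.92% of all genes lower and 6.79% higher. Among the 11 lower, Epcam and Cldn3 had small ratios, -0.07 and -0.13, and further probe sets of the opposite sign. Macrophage markers were lower in 12 of 12, of which Itgam was a bound, with a median of -0.47 and summed signals of 7595 and 5192. The lowest were Fcgr3 (-1.08), Mrc1 (-1.02) and Fcgr1 (-0.82). Of the 12, 5 were past 1.5-fold lower, against 6.92% of all genes, and 2 past 2-fold lower, against 1.8%. Natural killer markers were higher in 9 of 9 with a median of 0.61 and summed signals of 1911 and 3305. The highest were Gzma (0.89), Gzmb (0.87) and Nkg7 (0.71). Of the 9, 5 were past 1.5-fold higher, against 6.79% of all genes, and 0 past 2-fold higher, against 1.59%. Every marker gene on the array in these 7 lists was above the floor in at least 1 array, and 0 of them had a signal of 0.

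Genes that respond within minutes to cell stress, such as tissue digestion, were lower as well, and Hes1 can also be induced rapidly by stimuli other than Notch. All 18 immediate early genes had a ratio below 0, with a median of -0.49. Of the 18, 7 were past 1.5-fold lower, against 6.92% of all genes, and 3 past 2-fold lower, against 1.8%, and their signals summed to 50402 in control and 37161 in null cells. Egr3, Atf3 and Egr2 had -1.51, -1.35 and -1.16. Hes1, at -0.77, lay within the range of this list, which ran from -1.51 to -0.16, and Hey1, at 0.37, lay outside it. Whether a cell stress response had a part in the ratio of Hes1 was not tested.

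**Figure D4:**
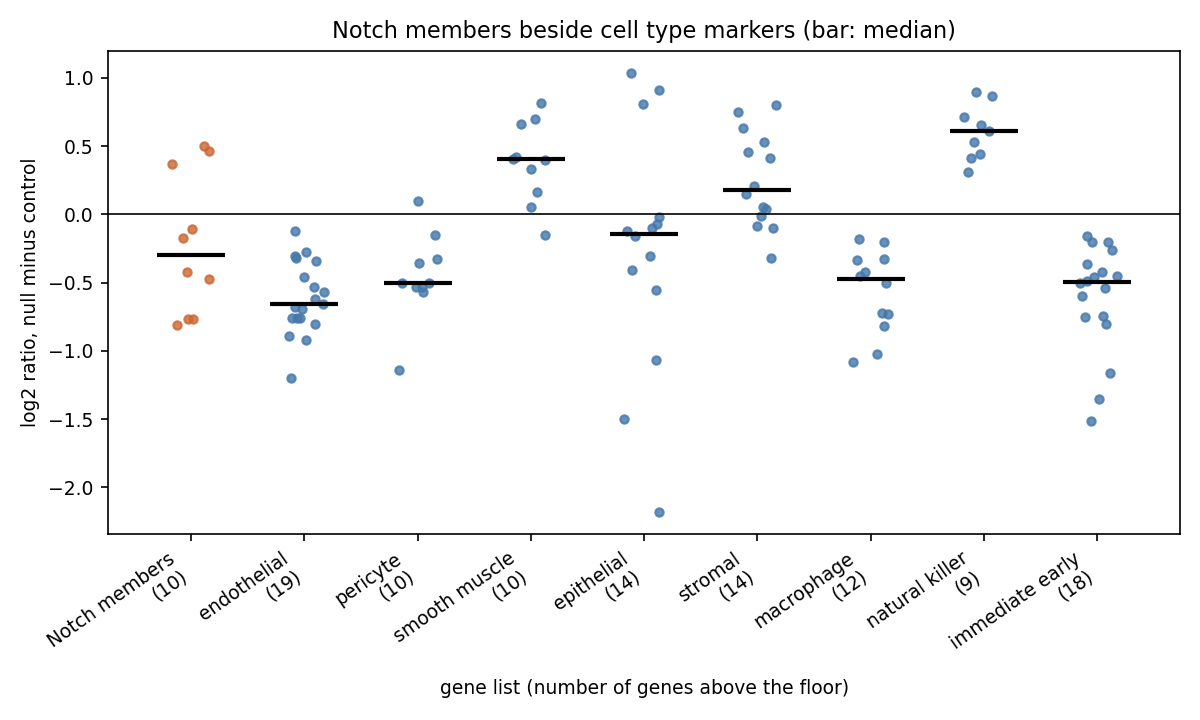
Log2 ratio, null minus control (vertical axis), of each gene above the floor in the Notch set, 7 cell type marker lists and the immediate early list, with a bar at each median. The members range from -0.81 to 0.50 around a median of -0.30, and the endothelial list has its median at -0.66.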

How the data were processed

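RNA of uterine stromal cells was hybridized to Affymetrix 3' expression arrays, 1 per genotype. The authors deposited linear signal intensities, for which the submitters' processing notes name MAS5 and version 1 of Affymetrix Expression Console. The mean of the deposited intensities, after trimming 2% at each end, was 150 in both arrays. MAS5 subtracts mismatch signal, so ratios of dim probe sets are unstable. Background settings and the genome build of the probe design are not given in the sources used here.

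Of 45101 probe sets, 64 were controls, 34945 had 1 gene symbol, 932 several and 9160 none, and probe sets with 1 symbol were used. Signals were put on the log2 scale without rescaling (Python 3.11.15, pandas 2.3.3). Signals under the floor, the 50th percentile of each array's non-control probe sets, were raised to it, which left 11833 genes, with 6360 under it in both arrays. Genes were called by size, at 2-fold and 1.5-fold, without tests, since each group had 1 array. Probe noise is the SD of the difference between the 2 brightest probe sets of a gene, divided by the square root of 2, by tertile of signal over 4690 genes. The 2-fold call was tested on simulated data, with changes larger than 2-fold planted in 200 bright genes. The 1.5-fold call, and changes in dim genes, were not tested in this way. The members, gene lists, thresholds and alternatives were chosen with earlier results of these data known. All members were named, and of the other pathway lists every gene past 1.5-fold and the 2 largest ratios of each list, and of each marker and the immediate early list the 3 largest with Pecam1, Cdh5 and Tek. Lfng, Adam10, Adam17, Pofut1, Poglut1, Hes6, Numb, Cox4i2, Itgam, Cldn7, Krt19, Elf3, Vim and the genes under the floor were added after their values were seen. Cspg4, Epcam, Cldn3, Des and Cd34 were added in the same way. With 2 arrays no gene was named for a similar pattern.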

Additional observations from a re-analysis of the deposited data

How the results depend on the processing

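Alternatives were no floor, a floor at the 65th percentile, the median of all probe sets of a gene above the floor, leaving out _x_at and _s_at probe sets, centring the arrays on their median, quantile normalization, and a pseudocount of 16 with no floor. The floor at the 65th percentile left 7 members measured, without Jag2, Dll1 and Dll4. Each member kept its direction under every alternative in which it was measured. Log2 ratios were -0.86 to -0.77 for Notch3, -0.87 to -0.59 for Jag2, -0.77 to -0.69 for Hes1 and 0.45 to 0.51 for Notch2. Since every alternative reuses the same 2 arrays, a kept direction describes the processing and not the genotype. Notch1, at -0.11 and within its probe noise SD of 0.21, kept its direction as well. The number of members past 1.5-fold lower was 2 or 3, and 2-fold was passed by 0. The members' median ran from -0.31 to -0.18. The median of the other pathway genes was near 0 and changed sign, to 0.0088 with no floor and with the 65th percentile floor, 0.035 with centring and 0.0081 with the pseudocount. Centring moved ratios by 0.05. Without a floor 16.3% of all genes were 1.5-fold lower and 16.5% higher. No paired analysis was possible because each genotype had 1 array. Replicates could not be left out, and outliers within groups could not be looked for, for the same reason. Some signals of Dll1, Dll4 and Jag2 lay close to the floor, and every ratio rests on 1 pool per genotype.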
